A study of Mus with 8 samples.

Results

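Described here is a module of 27 genes of cholesterol synthesis, uptake and export, chosen by name with earlier results of these data known. They are 19 synthesis enzymes, the regulator Srebf2, the sterol carrier Stard4, 5 LXR and export genes, and the storage enzyme Soat1. Of these, 23 were measured by a probe set annotated to a single gene, among 30636 genes in all. Acat2, Tm7sf2, Nr1h2 and Soat1 were not analysed here. Uptake enters only through Mylip, which marks the LDL receptor for degradation. Cholesterol is built from acetyl-CoA through mevalonate, isoprenoids and squalene, and the genes of nearly every step are known targets of SREBP2, a membrane-bound transcription factor that is released when sterols in the endoplasmic reticulum run low. The liver X receptors (LXRs) act the other way: oxysterols activate them, and their targets move cholesterol out of the cell or limit its uptake. Brown fat, the heat-producing adipose depot, takes in lipid from circulating lipoproteins, and their cholesterol comes with it.

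Total RNA of interscapular brown fat was hybridised to 8 arrays, 1 per mouse. The KO group holds 4 mice labelled as lacking Hilpda, a lipid droplet protein known to inhibit adipose triglyceride lipase, and the WT group holds 4 mice labelled wild type. All mice are labelled female and on a C57BL/6 background. The sources used here do not give the Hilpda allele, the cells in which it was deleted, or the age, diet and housing temperature of the mice. Values are log2 expression values, 1 unit being a doubling. A probe set's level was not compared with that of another, so each gene is compared only with itself.

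The arrays fall into a pair of sets with different distributions, with no label that accounts for it. In set 1, made up of replicates 1 and 2 of each genotype, the median gene value was 3.92 to 3.98. In set 2, made up of replicates 3 and 4 of each genotype, it was 4.92 to 4.96. Each set holds 2 KO and 2 WT arrays, so every comparison below was made within a set or with the set as a block. Hilpda itself read 4.45 and 4.37 in KO replicates 1 and 2 against 4.37 and 4.28 in WT replicates 1 and 2, and 5.60 and 5.51 in KO replicates 3 and 4 against 6.00 and 5.92 in WT replicates 3 and 4. It was thus below WT in the arrays labelled KO of set 2 only (difference -0.40, SE 0.10, limma adjusted p = 0.145). Whether its probe set covers the deleted sequence is not stated. Among brown fat markers Ucp1 read 19.68 to 19.93, at or near the top of the scale on every array. The Y-linked gene Uty read 9.31 to 10.93 and the female transcript Xist 3.49 to 4.10, so the sex-linked genes of all 8 arrays do not match the label female.

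RNA of other tissues differed between arrays, and these values stand beside all results that follow. The mean of 24 skeletal muscle markers was 6.16 and 8.36 in KO replicates 1 and 2 against 7.55 and 7.14 in WT replicates 1 and 2. In set 2 it was 5.70 and 9.78 in KO replicates 3 and 4 against 10.07 and 8.59 in WT replicates 3 and 4, so KO replicate 3 stood apart. In set 1, 20 of 20 liver markers read higher in KO, while 60.2% of detected genes (defined below) read lower. The mean of the 20 liver markers was 10.74 and 7.58 in KO replicates 1 and 2 against 7.33 and 5.58 in WT replicates 1 and 2. On the 4 arrays of set 2 it was 4.26 to 4.44, between the median (3.80 to 3.85) and the 95th percentile (4.74 to 4.84) of the olfactory receptor genes, which served as a low-signal group. Liver is a main site of cholesterol synthesis, and its part in the set 1 values was not tested. In bulk tissue, fewer cells of a type and less RNA per cell cannot be told apart.

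Synthesis enzymes read lower in the KO arrays of set 2 and showed no common direction in set 1. In set 2, 13 of 17 enzymes had a difference below 0 (44.5% of detected genes did), with a median of -0.64 and a range of -2.31 to 0.55, where the median of all genes was 0.02 and that of the 16460 detected genes 0.04. A gene counted as detected where it reached the 95th percentile of the olfactory receptor genes on at least 4 of 8 arrays, and all 23 measured members passed. For 6 enzymes, Hmgcs1, Idi1, Sqle, Msmo1, Nsdhl and Hsd17b7, the set 2 difference was -1 or lower, a size found in 1.06% of detected genes. That count rested on single arrays: without WT replicate 4 only Hmgcs1 remained (1 of 17, with 1.49% of detected genes), and without KO replicate 4 there were 3, Hmgcs1, Msmo1 and Nsdhl. In set 1, 11 of 17 enzymes had a difference below 0, where 60.2% of detected genes did, and the median was -0.13. LXR and export genes shared no direction in set 2, where Abcg1 was far higher in the KO arrays while Nr1h3 and Abca1 were lower. In set 1, 3 of these 4 genes had a difference below 0, beside the 60.2% of detected genes, and Nr1h3 was above 0. None of the 23 genes passed limma's test over all genes (Benjamini-Hochberg adjusted p under 0.05) in set 1, in set 2, with the sets balanced or for the difference between the sets.

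**Figure D1:**
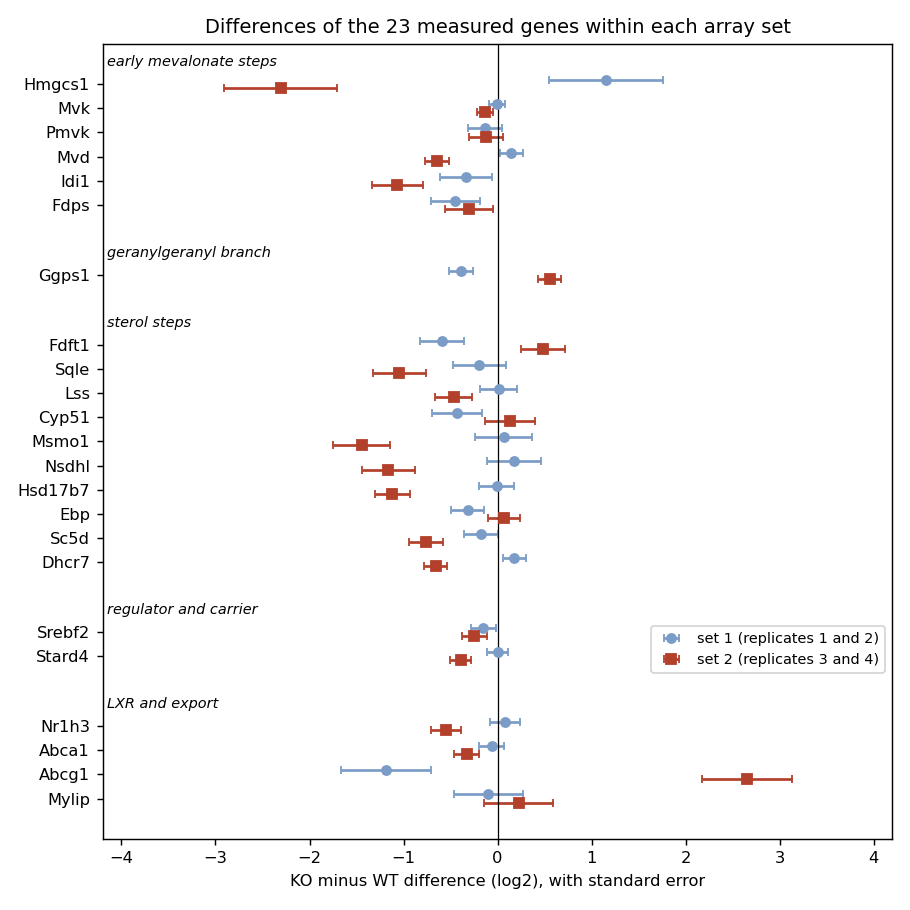
KO minus WT differences on the log2 scale for the 23 measured genes, in pathway order from top to bottom. Circles are set 1 and squares set 2, each the difference of 2 KO and 2 WT arrays with limma's standard error. The squares of most synthesis enzymes lie left of 0, down to -2.31 for Hmgcs1, those of Ggps1 and Fdft1 lie right of it, and Abcg1 lies at 2.65 in set 2 and -1.19 in set 1.

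The first enzymes of the pathway make and activate mevalonate. Hmgcs1, the cytosolic HMG-CoA synthase that makes the substrate of HMG-CoA reductase, read 14.91 and 12.93 in KO replicates 3 and 4 against 16.40 and 16.06 in WT replicates 3 and 4, a difference of -2.31 (SE 0.61, adjusted p = 0.157 in limma). Both KO values lay below both WT values, but the KO arrays were themselves 1.98 apart, and the difference was -3.30 without KO replicate 3 and -1.32 without KO replicate 4. The order was turned in set 1, with 15.94 and 15.98 in KO replicates 1 and 2 against 15.27 and 14.34 in WT replicates 1 and 2, a difference of 1.15 (SE 0.61). Idi1, which isomerises isopentenyl diphosphate so that isoprenoid units can be joined, read 8.09 and 7.86 in the KO arrays against 8.68 and 9.39 in the WT arrays of set 2 (-1.07, SE 0.27, adjusted p = 0.153 in limma), and the difference was -0.71 without WT replicate 4. In set 1 Idi1 read 6.59 and 6.81 in KO against 7.32 and 6.76 in WT, so the groups overlapped. With the sets balanced its difference of -0.70 (SE 0.23) had the smallest unadjusted p of the 17 enzymes, 0.0159, and an adjusted p of 0.984 in limma.

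The other early enzymes differed less than these in set 2. Mvd, the mevalonate diphosphate decarboxylase, read 5.51 and 5.60 in KO against 6.32 and 6.09 in WT of set 2 (-0.64, SE 0.12, adjusted p = 0.108 in limma) and 4.46 and 4.56 in KO against 4.46 and 4.27 in WT of set 1. The kinases Mvk and Pmvk, which phosphorylate mevalonate in turn, differed by -0.14 and -0.12 in set 2 and by -0.01 and -0.13 in set 1. Fdps, the farnesyl diphosphate synthase, differed by -0.31 in set 2, where KO replicate 4 lay between the WT values, and by -0.45 in set 1, where the genotypes did not overlap. Farnesyl diphosphate is the branch point, and Ggps1, which takes it to geranylgeranyl diphosphate for protein prenylation and away from sterols, was higher in KO in set 2. It read 9.67 and 9.51 in KO against 8.92 and 9.15 in WT of set 2 (0.55, SE 0.13, adjusted p = 0.13 in limma), and 7.56 and 7.68 in KO against 7.94 and 8.08 in WT of set 1 (-0.39, SE 0.13, adjusted p = 0.504). The genotypes did not overlap in either set, and the sign was turned between them.

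The committed sterol steps begin with squalene. Fdft1, the squalene synthase, read 10.34 and 10.33 in KO against 9.51 and 10.21 in WT of set 2, and 7.43 and 7.78 in KO against 8.11 and 8.28 in WT of set 1. Like Ggps1 it was higher in KO in set 2 (0.48, SE 0.23) and lower in set 1 (-0.59, SE 0.23), without overlap. The set 2 difference was 0.13 without WT replicate 3 and 0.83 without WT replicate 4. Sqle, the squalene epoxidase and a rate-limiting oxygen-dependent step, read 6.94 and 6.41 in KO against 7.33 and 8.11 in WT of set 2 (-1.05, SE 0.28, adjusted p = 0.163 in limma), and the difference was -0.66 without WT replicate 4. It read 5.96 and 6.28 in KO against 6.31 and 6.32 in WT of set 1 (-0.20, SE 0.28). Sqle was the only enzyme of the 17 whose KO values lay below all WT values of the same set in both sets, where 3.26% of detected genes did so. Lss, which closes the rings to lanosterol, differed by -0.47 in set 2 (-0.25 without WT replicate 4) and by 0.01 in set 1.

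The steps that turn lanosterol into cholesterol divided into those that read lower in KO in set 2 and those that did not. Msmo1, the C4-methylsterol oxidase, read 6.31 and 6.00 in KO against 7.10 and 8.10 in WT (-1.44, SE 0.30, adjusted p = 0.119 in limma), with the WT arrays 0.999 apart and a difference of -0.94 without WT replicate 4. In set 1 it read 5.88 and 6.13 in KO against 5.91 and 5.97 in WT, with overlap. Nsdhl and Hsd17b7 are the next enzymes of C4 demethylation, a dehydrogenase and a ketoreductase. Nsdhl read 8.39 and 9.14 in KO against 9.69 and 10.16 in WT of set 2 (-1.16, SE 0.29, adjusted p = 0.144), and in set 1 it read 7.23 and 7.69 in KO against 7.23 and 7.34 in WT, with overlap (0.18, SE 0.29). Hsd17b7 read 6.83 and 6.38 in KO against 7.59 and 7.85 in WT of set 2 (-1.12, SE 0.18), and its adjusted p of 0.0896 was the lowest of the 17 enzymes in that set. Its set 1 values were 5.66 and 5.95 in KO against 5.84 and 5.79 in WT (-0.01, SE 0.18). Each of these 3 enzymes was lower in KO without overlap in set 2, as 21.6% of detected genes were, and overlapped in set 1.

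Sc5d, which sets the C5 double bond late in the pathway, read 11.17 and 11.18 in KO against 11.90 and 11.98 in WT of set 2 (-0.77, SE 0.18, adjusted p = 0.135 in limma). In set 1 it read 9.82 and 10.33 in KO against 10.39 and 10.11 in WT. Dhcr7, the last reductase before cholesterol, read 6.05 and 6.30 in KO against 6.88 and 6.79 in WT of set 2 (-0.66, SE 0.12, adjusted p = 0.103), but 5.06 and 4.94 in KO against 4.88 and 4.76 in WT of set 1 (0.18, SE 0.12). Cyp51, the lanosterol 14-demethylase, and Ebp, the sterol isomerase, did not follow: they differed by 0.13 and 0.07 in set 2, where the groups overlapped, and by -0.43 and -0.32 in set 1, where they did not.

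**Figure D2:**
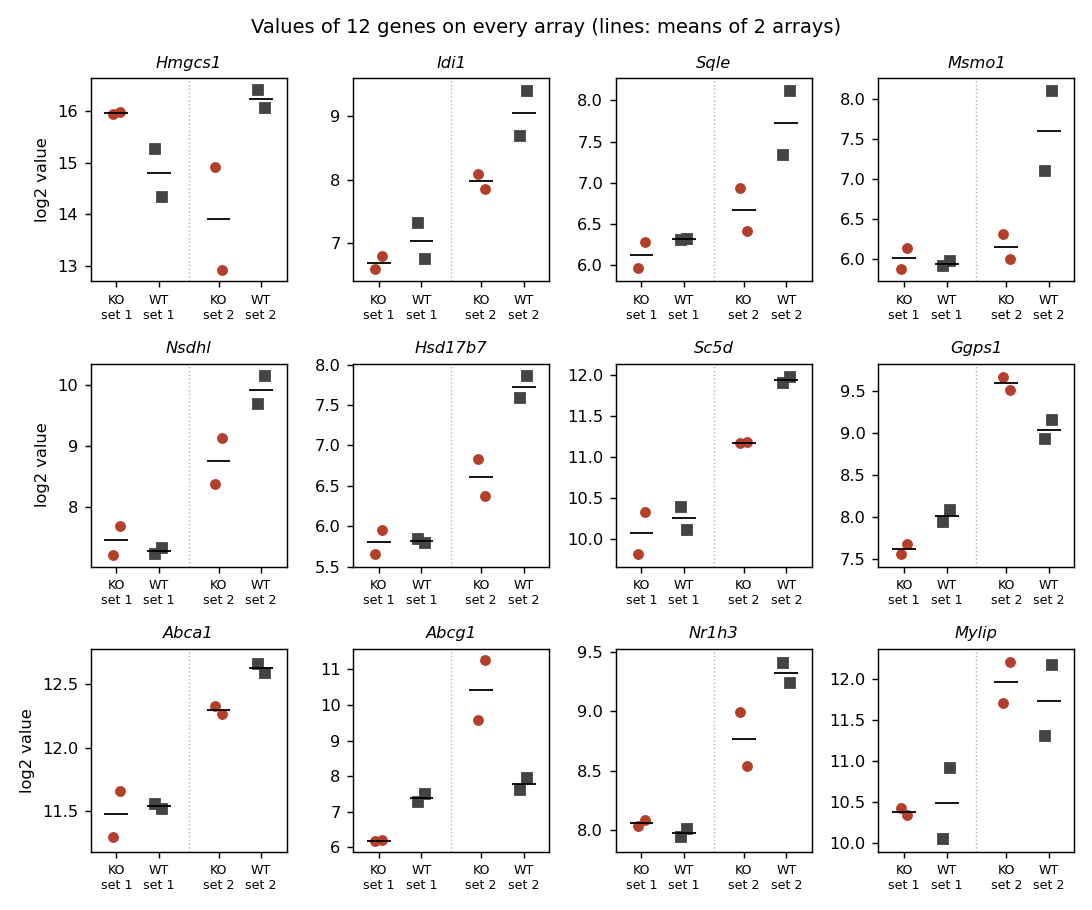
Log2 values of 12 members on every array, KO (circles) left of WT (squares) within each set, with the mean of the 2 arrays as a line. In set 2 (right of the dotted line) both KO arrays lie below both WT arrays for Hmgcs1, Idi1, Sqle, Msmo1, Nsdhl, Hsd17b7, Sc5d, Abca1 and Nr1h3, and above them for Ggps1 and Abcg1. The vertical axis differs between panels and does not start at 0.

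Counted over the 17 enzymes, 10 were lower in KO at an unadjusted p under 0.05 in set 2 and 1 was higher (Ggps1), against 8.86% of detected genes lower and 13.2% higher, and 6.14% and 8.91% of all genes. By non-overlap, 11 enzymes were lower and 2 higher in set 2, where 21.6% of detected genes were lower and 29.5% higher. In set 1, 6 were lower and 2 higher without overlap, against 27.9% and 13.9% of detected genes. In set 1 the unadjusted counts were 2 lower (Ggps1 and Fdft1) and 0 higher, against 9.05% and 3.28% of detected genes. The share lower in set 1, 2 of 17, is near that background. With the sets balanced, 16 of 17 enzymes had a difference below 0 (53.6% of detected genes did), and 4 had an unadjusted p under 0.05, namely Idi1, Sqle, Sc5d and Hsd17b7, against 3.4% of detected genes, while 0 were higher at that p, against 2.35%. Over all genes, limma called 0 at an adjusted p under 0.05 with the sets balanced (713 lower and 761 higher at an unadjusted p under 0.05) and 0 in set 1 (1551 lower and 815 higher). In set 2 it called 1 gene, 0.00326% of all genes, which is no member.

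The enzymes did not keep 1 order between the sets. Of the 17, 7 were below 0 in both sets (Mvk, Pmvk, Idi1, Fdps, Sqle, Hsd17b7 and Sc5d), 6 were above 0 in set 1 and below 0 in set 2 (Hmgcs1, Mvd, Lss, Msmo1, Nsdhl and Dhcr7), 4 were below 0 in set 1 and above 0 in set 2 (Ggps1, Fdft1, Cyp51 and Ebp), and 0 were above 0 in both. The set 1 sign of Mvk and of Hsd17b7, each at -0.01, was turned when arrays were centred on their medians (0.051 and 0.050). The set 2 difference minus the set 1 difference ranged from -3.46 for Hmgcs1 (SE 0.86, adjusted p = 0.128 in limma) to 1.07 for Fdft1 (SE 0.33, adjusted p = 0.199). It had an unadjusted p under 0.05 in 6 enzymes below 0 and 2 above 0, against 7.64% and 16.0% of detected genes, and 0 members passed over all genes, where 153 genes did (0.124% of all genes below 0 and 0.375% above).

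**Figure D3:**
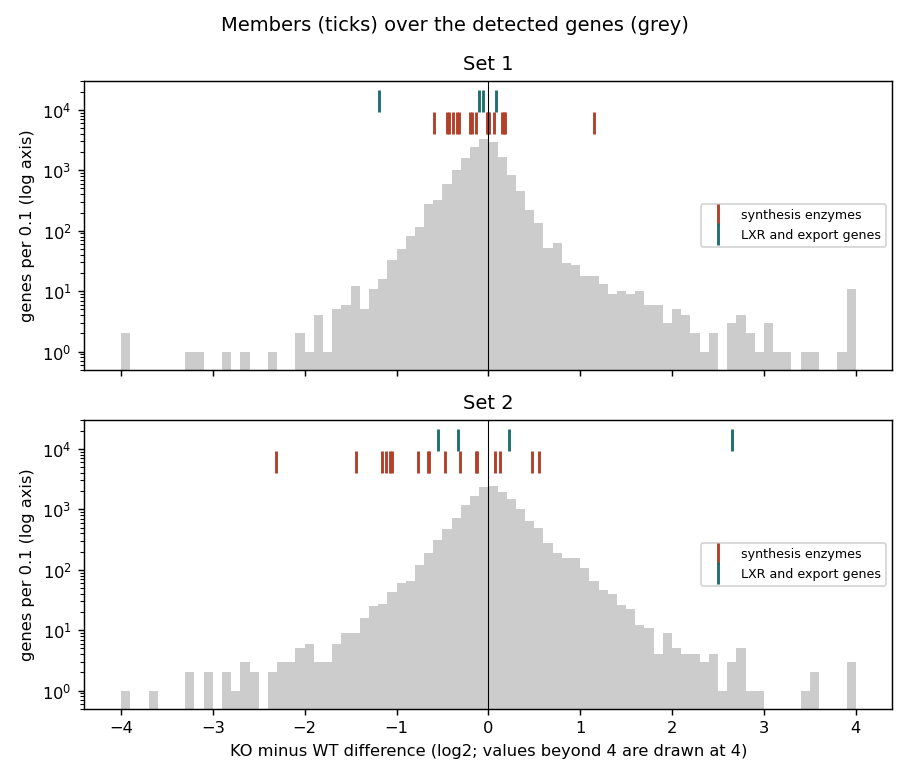
Numbers of detected genes (grey bars, log axis) by KO minus WT difference on the log2 scale in set 1 (top) and set 2 (bottom), with ticks for the 17 synthesis enzymes and the 4 LXR and export genes. In set 1 the enzyme ticks run from -0.59 (Fdft1) to 1.15 (Hmgcs1), and in set 2 from -2.31 (Hmgcs1) to 0.55 (Ggps1), with Abcg1 at 2.65.

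The regulator and the carrier both read lower in KO in set 2. Srebf2, which encodes SREBP2, read 7.21 and 6.96 in KO against 7.25 and 7.41 in WT of set 2, and 6.04 and 6.05 in KO against 6.08 and 6.31 in WT of set 1. Its KO values lay below the WT values in both sets, as in 3.26% of detected genes. The differences were -0.25 in set 2 (-0.12 without KO replicate 4) and -0.15 in set 1 (SE 0.13 each). With the sets balanced the difference was -0.20 (SE 0.09, adjusted p = 0.984 in limma). Stard4, a cytosolic sterol carrier and SREBP2 target, read 5.90 and 5.74 in KO against 6.18 and 6.24 in WT of set 2 (-0.39, SE 0.11, adjusted p = 0.188). In set 1 it read 4.46 and 4.64 in KO against 4.61 and 4.49 in WT, with overlap.

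The largest difference of any member belonged to an export gene. Abcg1, which passes cholesterol to HDL particles and is a known LXR target, read 9.59 and 11.28 in KO replicates 3 and 4 against 7.61 and 7.95 in WT replicates 3 and 4, a difference of 2.65 (SE 0.48, adjusted p = 0.0999 in limma). In set 1 it read 6.18 and 6.20 in KO against 7.26 and 7.50 in WT, a difference of -1.19 (SE 0.48, adjusted p = 0.628). The genotypes did not overlap in either set, and the sign was turned. The difference between the sets was 3.85 (SE 0.68, adjusted p = 0.0683). The set 2 value depended on the KO array used: the difference was 1.81 without KO replicate 4 (limma adjusted p = 0.183) and 3.50 without KO replicate 3 (limma adjusted p = 0.0259).

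The other LXR genes did not follow Abcg1. Abca1, which loads cholesterol onto apolipoprotein A-I and is also a known LXR target, read 12.33 and 12.27 in KO against 12.66 and 12.59 in WT of set 2 (-0.33, SE 0.13, adjusted p = 0.311 in limma). Its set 1 values were 11.29 and 11.65 in KO against 11.55 and 11.52 in WT. Nr1h3, which encodes LXR-alpha, read 8.996 and 8.54 in KO against 9.40 and 9.24 in WT of set 2 (-0.55, SE 0.16, adjusted p = 0.187, and -0.32 without KO replicate 4), and 8.03 and 8.08 in KO against 7.94 and 8.01 in WT of set 1 (0.08, SE 0.16). Mylip, the LXR-induced ubiquitin ligase for the LDL receptor, read 11.70 and 12.21 in KO against 11.30 and 12.16 in WT of set 2, and 10.43 and 10.34 in KO against 10.05 and 10.91 in WT of set 1. Its groups overlapped in both sets (0.22 and -0.10, SE 0.37 each). Of these 4 genes, 2 were lower and 1 higher at an unadjusted p under 0.05 in set 2, against 8.86% and 13.2% of detected genes, and 1 was lower in set 1, against 9.05%.

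Set side by side, the mean of the 17 enzymes was 8.16 and 8.12 in KO replicates 3 and 4 against 8.55 and 8.90 in WT replicates 3 and 4, and the mean of the 4 LXR genes was 10.65 and 11.07 in KO against 10.24 and 10.48 in WT. The enzyme mean was thus lower in both KO arrays of set 2 while the LXR mean was higher. That higher LXR mean rested on Abcg1 (difference 2.65), since Nr1h3 and Abca1 were lower in KO without overlap and Mylip overlapped. The median difference of the 4 LXR genes in set 2 was -0.05. In set 1 the enzyme mean was 6.87 and 7.05 in KO against 7.08 and 6.99 in WT, with overlap, and the LXR mean was 8.98 and 9.07 in KO against 9.20 and 9.49 in WT, without overlap. Of the 4 LXR genes only Abcg1 (-1.19) was lower there without overlap, while Nr1h3 was higher (0.08) and Abca1 and Mylip overlapped. The enzyme and LXR means are descriptions of these arrays, with no test. WT replicate 4 had the highest value of the set in 10 of the 17 enzymes. KO replicate 3 had the lowest in 7, KO replicate 4 in 5 and WT replicate 3 also in 5. The WT arrays of set 2 also differed between themselves, with a median of 0.44 over the enzymes and WT replicate 4 higher in 13 of 17. In 12 of 17 enzymes the set 2 difference between the genotypes was larger than the gap within either genotype (37.7% of detected genes), and in set 1 this held for 6, near the background of 29.1%.

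**Figure D4:**
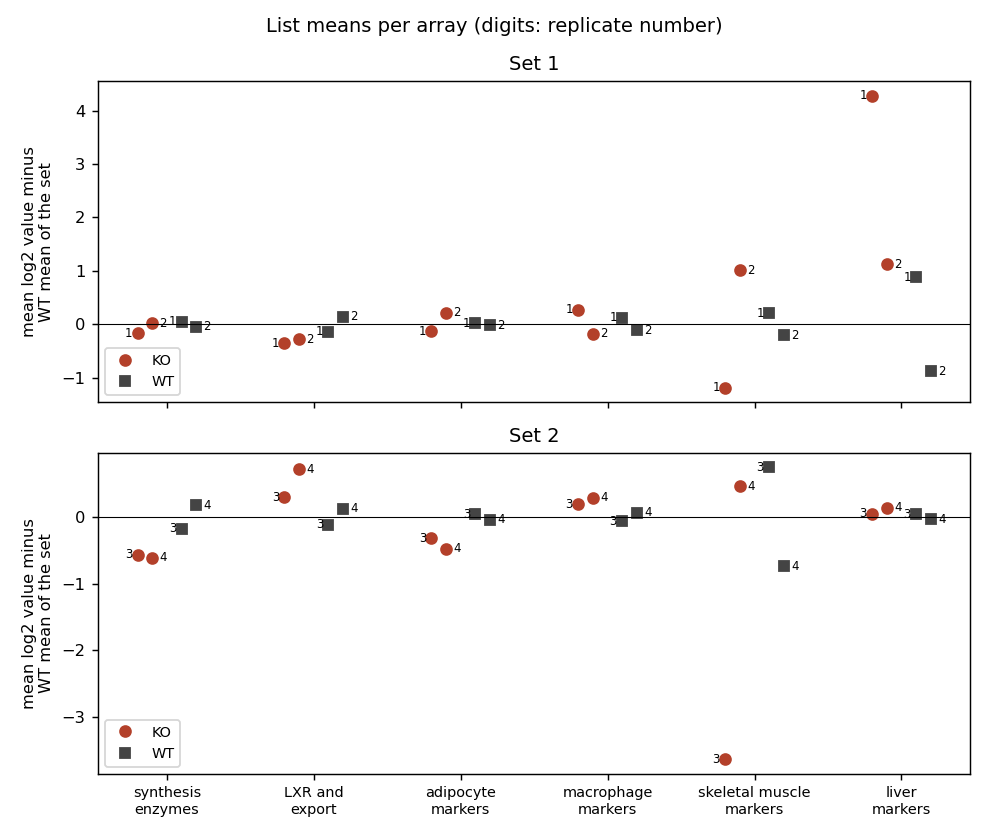
Mean log2 value of each list on each array minus the mean of the WT arrays of the same set, for set 1 (top) and set 2 (bottom), with KO circles left of WT squares and the replicate number beside each point. In set 2 both KO arrays lie below both WT arrays for synthesis enzymes (-0.57 and -0.61) and adipocyte markers (-0.32 and -0.48), KO replicate 3 alone is far down for muscle markers (-3.63), and in set 1 KO replicate 1 is far up for liver markers (4.28).

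The means of general adipocyte and macrophage markers also stood apart by genotype in set 2, and that of 10 brown adipocyte markers did not, with 14.97 and 14.42 in KO against 14.57 and 14.78 in WT (6 of 10 below 0, median -0.01). Ucp1, at the top of the scale, is counted as below 0 in set 2 at -0.0075. In set 1 the brown adipocyte mean did stand apart, with 13.27 and 13.34 in KO against 13.82 and 13.86 in WT. There 6 of 10 of these markers were below 0, against 60.2% of detected genes, with differences from -4.625 to 1.453. Their median was -0.155. Only 1 marker was lower without overlap and 1 higher, against 27.9% and 13.9% of detected genes. The mean of 9 general adipocyte markers was 16.84 and 16.69 in KO replicates 3 and 4 against 17.21 and 17.12 in WT replicates 3 and 4, and 15.94 and 16.29 in KO against 16.08 and 16.05 in WT of set 1. The mean of 12 macrophage markers was 7.33 and 7.43 in KO against 7.08 and 7.203 in WT of set 2, and 5.97 and 5.53 in KO against 5.82 and 5.58 in WT of set 1. Macrophages also express Abcg1, Abca1 and Nr1h3. In set 2, where 44.5% of detected genes were below 0, 7 of 9 adipocyte markers were below 0 (median -0.18) and 10 of 12 macrophage markers above 0 (median 0.24). Muscle markers were below 0 in 23 of 24, but only 2 were lower without overlap, against 21.6% of detected genes. The part of all these cell types in the results was not tested. Without KO replicate 3 the median of the enzymes in set 2 was -0.53, against -0.64 with all arrays. This leaves a single KO array in the set, so the part of muscle RNA was not tested by it.

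Other genes of the pathway were taken from 4 further lists. Beside the counts of all 4 lists stand the shares of detected genes below 0, 44.5% in set 2 and 60.2% in set 1. Of 5 other SREBP2 targets measured, 1 was below 0 and 4 above 0 in set 2, and 4 below 0 and 1 above 0 in set 1. Insig1, which retains SREBP2 in the endoplasmic reticulum and is itself an SREBP2 target, read 12.21 and 11.31 in KO against 14.71 and 14.83 in WT of set 2, and 13.21 and 14.08 in KO against 11.28 and 10.43 in WT of set 1. Like Hmgcs1 it was lower in KO in set 2 (-3.01, SE 0.42) and higher in set 1 (2.79, SE 0.42), and the difference between the sets, -5.81 (SE 0.59, adjusted p = 0.0367 in limma), passed over all genes. That call was lost without any 1 array (adjusted p 0.0591 to 0.158), and Insig1 is named here after its values were seen. Rdh11, Aacs and Lbr, the 3 with the smallest unadjusted p, differed by -0.41, 0.15 and 0.07 with the sets balanced. Within the sets, Rdh11 differed by 0.005 in set 2 and -0.82 in set 1, Aacs by 0.62 and -0.33, and Lbr by 0.28 and -0.14. None of the 5 passed within a set or with the sets balanced.

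The 3 measured genes of SREBP processing were all below 0 in set 2, where Scap, the sterol-sensing escort of SREBP2, differed by -0.31, the protease gene Mbtps1 by -0.29 and Insig2 by -0.05. In set 1, 1 of these was below 0 and 2 above 0. Scap (0.14) was higher in KO without overlap there, as 13.9% of detected genes were. Of 5 genes of uptake and lysosomal release, 1 was below 0 and 4 above 0 in set 2. In set 1, 3 were below 0 and 2 above 0. Npc1, which exports cholesterol from lysosomes, read 13.10 and 13.12 in KO against 11.51 and 12.12 in WT of set 2 (1.30, SE 0.21, adjusted p = 0.0896 in limma), and 11.69 and 11.84 in KO against 12.11 and 12.44 in WT of set 1 (-0.51, SE 0.21). Npc2, its lysosomal partner, differed by 0.33 in set 2, and Lipa, which frees cholesterol from its esters, by -0.72. Like Abcg1, Ggps1 and Fdft1, Npc1 was higher in KO in set 2 and lower in set 1. Non-overlap with opposite signs in the sets was found in 6 of the 23 members and in 18.4% of detected genes.

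Of 10 further LXR targets and sterol-handling genes measured, 3 were below 0 and 7 above 0 in set 2. In set 1, 6 were below 0 and 4 above 0. Of the 10, 7 were detected, with 3 below 0 and 4 above 0 in set 2. Scd1 is counted there as below 0 at -0.0075. Like Ucp1, it had the highest value of each array of set 2, at the top of the scale. Apoe, an LXR target that carries cholesterol in lipoproteins, read 15.71 and 15.67 in KO against 14.40 and 14.79 in WT of set 2 (1.10, SE 0.18, adjusted p = 0.0896 in limma), and 14.10 and 13.74 in KO against 13.90 and 14.10 in WT of set 1 (-0.08, SE 0.18). Lpcat3, a phospholipid acyltransferase and LXR target, differed the other way, with 11.17 and 10.92 in KO against 11.77 and 11.55 in WT of set 2 (-0.61, SE 0.13, adjusted p = 0.119). In set 1 Lpcat3 read 10.30 and 10.43 in KO against 10.15 and 10.12 in WT (0.23, SE 0.13). It was thus higher in KO without overlap there, as 13.9% of detected genes were. Cyp27a1, which makes an oxysterol that activates LXRs, differed by 0.31 in set 2 and 0.09 in set 1. LXR targets therefore lay on both sides of 0 in set 2, with Abcg1 and Apoe above it and Abca1 and Lpcat3 below it.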

How the data were processed

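The deposited table holds log2 expression values for 72688 probe sets on 8 arrays. Per the labels, the authors made these values with Expression Console (Affymetrix), using RMA at the level of core exons. The series' design text also names Transcriptome Analysis Console, with no technical replicates. The sources used here give no software version or build. The number of arrays limits the precision. Base 2 was inferred from the top of the scale in set 1, 19.93. Platform annotation, with symbols updated through RefSeq (GRCm38.p6) identifiers, gave 31094 probe sets with 1 gene, 1656 with several and 39938 with no name here. A gene with several probe sets was represented by that with the highest mean, which left 30636 genes.

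Each gene was fitted with limma 3.58.1 in R 4.3.3 (lmFit and eBayes) over all 8 arrays. One fit had genotype with the set as a block, and the other had a mean per genotype and set, from which the within-set differences and the difference between the sets were taken. p-values were Benjamini-Hochberg adjusted over all genes, with a threshold of 0.05. Standard errors (SE) take their spread from all arrays. The fits were tested on simulated data. Members and lists were chosen with earlier results of these data known. All 27 members were named by role, and from each further list the up to 3 genes with the smallest unadjusted p with the sets balanced. Alternatives were no set block, the replicate number as a block, other variance moderation, a filter, 2 other scalings, probe set means, each set alone and each array left out.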

Additional observations from a re-analysis of the deposited data

Results flagged for a closer look

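In 6 members the genotypes did not overlap in either set and the sign was turned between the sets, as in 18.4% of detected genes. The set 2 difference minus the set 1 difference was -3.46 for Hmgcs1, 0.94 for Ggps1, 1.07 for Fdft1, -0.84 for Dhcr7, -0.63 for Nr1h3 and 3.85 for Abcg1, with limma adjusted p values of 0.128, 0.0825, 0.199, 0.0929, 0.257 and 0.0683. Insig1, which is no member, differed between the sets by -5.81 (adjusted p = 0.0367). No member had 1 array far from the 3 others of its genotype by Dixon's criterion, which the distance between the sets makes hard to meet.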

How the results depend on the processing

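No member passed limma's threshold under the settings that kept all arrays, except Abcg1 for the difference between the sets with the filter on low values (adjusted p = 0.0459). Without KO replicate 3, Abcg1 passed in set 2 and for that difference (4.69, adjusted p = 0.022). The Insig1 call was lost with trend and robust variances (adjusted p = 0.0525). The median of the synthesis enzymes stayed below 0 with each array left out, at -0.70 to -0.53 in set 2, -0.16 to -0.01 in set 1 and -0.37 to -0.19 with the sets balanced. The number of synthesis enzymes at -1 or lower in set 2, counted without each array in turn after the data had been seen, was 1 to 6.

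The number of genes called depended on the processing. In set 2, where 1 gene was called, the filter gave 12, median centring 15, and quantile normalization, the replicate block and set 2 fitted alone 0 each, with 0 to 10 when 1 array was left out. For the difference between the sets, where 153 were called, the filter gave 358, median centring 256, the replicate block 3 and trend and robust variances 4, with 0 to 10 when 1 array was left out. In set 1 median centring gave 1, and leaving out 1 array 0 to 14, the 14 without KO replicate 2. With the sets balanced, leaving out 1 array gave 0 to 1. The median of the LXR genes in set 1 ranged from -0.289 to 0.019 with 1 array left out. The cause was not tested.

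Replicate numbers were not shown to pair the arrays: deviations from the group means of arrays with the same number correlated at 0.473 to 0.701, but for replicates 2 and 3 another number correlated higher (0.615 and 0.628), and within the sets the correlations were 0.107 and -0.089. With the replicate block, the calls were 0 with the sets balanced, 0 in set 2 and 3 for the difference between the sets, and Insig1 had an adjusted p of 0.0803.

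Small differences changed sign. Median centring gave 0.051 in set 1 for Mvk and 0.050 for Hsd17b7, and -0.083 for Pmvk between the sets. Quantile normalization gave 0.060 for Hsd17b7 and 0.038 for Abca1 in set 1 and -0.14 for Pmvk between the sets. With 1 array left out, set 2 differences ranged from -0.39 to 0.15 for Pmvk, -0.697 to 0.085 for Fdps, -0.16 to 0.42 for Cyp51, -0.18 to 0.31 for Ebp and -0.21 to 0.65 for Mylip. Set 1 differences ranged from -0.024 to 0.007 for Mvk, -0.12 to 0.14 for Lss, -0.062 to 0.193 for Msmo1, -0.058 to 0.408 for Nsdhl, -0.16 to 0.14 for Hsd17b7, -0.431 to 0.076 for Sc5d, -0.089 to 0.091 for Stard4, -0.24 to 0.12 for Abca1 and -0.53 to 0.33 for Mylip. Differences between the sets ranged from -0.26 to 0.28 for Pmvk, -0.25 to 0.53 for Fdps, -0.220 to 0.033 for Srebf2 and -0.11 to 0.76 for Mylip. With the sets balanced they ranged from -1.11 to 0.17 for Hmgcs1, -0.057 to 0.205 for Ggps1, -0.30 to 0.12 for Fdft1, -0.320 to 0.001 for Cyp51, -0.14 to 0.27 for Mylip and -0.86 to 0.65 for Insig1.

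With 2 arrays per genotype in a set, leaving out 1 leaves a single array that is assumed to vary like the others.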
